A study of Homo sapiens with 6 samples.

Results

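Genes of nucleolar ribosome assembly and of RNA polymerase I were examined in CaSki cells, a long-established human line from a squamous carcinoma of the cervix. The members were 59 of 19775 measured genes, matched by a rule on gene symbols that was itself written with earlier results of these data known: the subunits of RNA polymerase I (POLR1A to POLR1H), the UTP, NOP, NOL and RRP families, IMP3, IMP4, BMS1, and 16 further symbols such as DDX21, WDR12, NCL, NPM1 and FBL. RNA was measured on 6 Affymetrix arrays, 3 of cells given recombinant TGF-b1 at 2 ng/mL and 3 of untreated cells kept in medium without it (0 ng/mL). All cells were of this 1 line, grown in RPMI1640 medium with fetal bovine serum. The labels give neither the duration of treatment nor whether arrays came from separate cultures, so each p-value reflects only how far these 6 arrays scattered, and that scatter may be technical. BOP1, DKC1, EBNA1BP2, GNL3, NOP56, UTP14C, RRP7BP and NOP53-AS1 had no probe set with a single gene name and were not analysed here.

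Ribosomes are built in the nucleolus. RNA polymerase I transcribes the ribosomal RNA precursor, small nucleolar ribonucleoproteins modify it, and the small-subunit processome and a separate set of large-subunit factors fold and cut it while ribosomal proteins join. The transcription factor MYC is known to promote expression of many of these genes, and TGF-β is known to restrain growth of many epithelial cells.

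The treatment was visible in known TGF-β targets: the inhibitory SMAD gene SMAD7 stood at 6.66, 6.61 and 6.70 in TGF-b1-treated cells, against 4.78, 5.05 and 5.14 in untreated cells (log2 RMA values, arrays 1 to 3), a difference of 1.67 (log2, limma adjusted p = 7.91e-05). PMEPA1, which encodes another inhibitor of the pathway, was higher by 1.98 (limma adjusted p = 9.75e-06), and all 4 measured genes of a check list of such targets were higher. Of 14 squamous and cervical epithelial markers 11 were measured and 10 lay above the array median, with summed linear signals of 34266 to 39655 on treated and 32182 to 35131 on untreated arrays. These markers moved apart: EPCAM, an epithelial adhesion gene, was lower by -0.70 (log2, limma adjusted p = 9.48e-04), while the keratin genes KRT7, KRT14 and KRT8 were higher by 1.21, 0.77 and 0.60, and 7 of the 11 did not pass. Of 10 fibroblast markers 5 lay above the array median, and their summed linear signal was 1015 to 1099 on treated and 456 to 519 on untreated arrays, with COL1A1 and FAP higher by 1.58 and 0.89 (log2), while the fibroblast genes DCN and LUM differed by 0.27 and 0.01 without passing. Of 8 measured endothelial and immune markers 4 lay above the array median, and the summed signal of the 8 was 190 to 201 on treated and 175 to 181 on untreated arrays. Of these markers KDR was called higher and CDH5 lower, but both are dim, with means of 2.82 and 3.11 (log2), below the array median. The part of these markers in the results below was not tested. In such bulk RNA fewer cells of a type and less RNA per cell cannot be told apart.

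Members were lower more often than higher in treated cells. Of 59 members 14 were lower and 1 was higher (limma, Benjamini-Hochberg adjusted p below 0.05 over all 19775 genes), and 44 did not pass. Over all genes 4.47% were called lower and 4.03% higher, and 6.43% and 5.55% of the 13085 genes above the array median of 4.16. At an unadjusted p below 0.05, 29 members were lower and 2 higher, against 12.6% and 10.6% of all genes and 16.8% and 12.5% of genes above the array median, and the unadjusted counts given below for each role stand against these shares. The median difference of the members was -0.21 (log2, treated minus untreated), against -0.003 for all genes and -0.02 for genes above the array median, a group to which 57 of the 59 belonged. The differences were small, with quartiles at -0.31 and -0.04, and 48 of 59 differences were below 0, against 50.6% of all genes and 54.9% of genes above the array median. In 31 members every treated array lay below every untreated array, and in 2 above, against 16.3% and 12.9% of all genes. Among genes above the array median 22% had every treated array below.

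The number of calls depended on the arrays used. Without TGF-b1 array 1, 2 or 3 the members called lower were 8, 5 and 5, and without untreated array 1, 2 or 3 they were 4, 5 and 4. The share of all genes called lower was then 1.6% to 3.19%. POLR1B, DDX21 and WDR12 passed in all 6 of these fits and NOP16 in 5. Without both arrays numbered 1, in which control transcripts gave their highest ratio of 3' to 5' signal, only POLR1B of the 59 passed as lower (adjusted p = 0.0164), a share near the 1.37% of all genes then called lower, and the median of the members was -0.18. That ratio, a sign of RNA quality, was 1.15, 0.69 and 0.74 on treated arrays and 1.19, 0.86 and 0.77 on untreated arrays (log2). With it as a covariate 17 members were lower, while the share of all genes called lower was 5.65%.

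**Figure D1:**
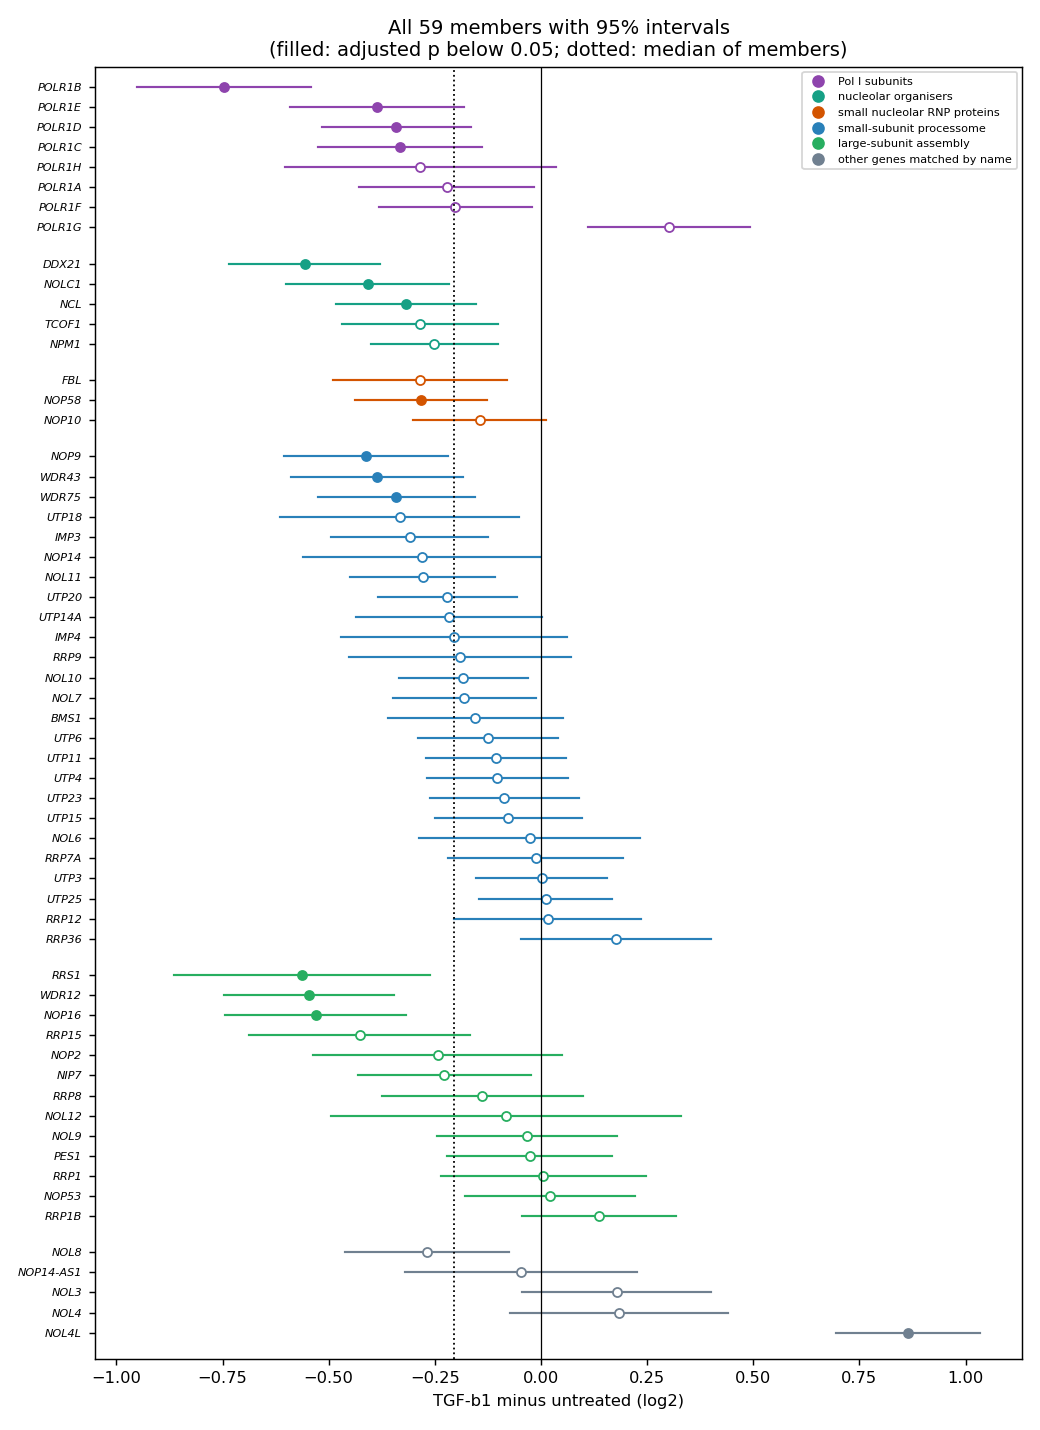
TGF-b1 minus untreated differences (log2, x axis) of the 59 members in order of role, with 95% intervals from limma. Filled points passed an adjusted p below 0.05, and the dotted line is the median of the members at -0.21. Of the points 48 lie left of 0.

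Upstream sequences are shown for the 3 members whose lower call was kept whichever single array was left out, since MYC and MAX bind the palindrome CACGTG and ETS factors bind CCGGAAG. Each window is the 250 bases before an annotated RefSeq start (GRCh38.p14), 5′ to 3′ on the gene's strand, with matches to either motif on either strand in capitals. DDX21 and POLR1B have 2 annotated starts each. The windows are at chr10:68955920-68956169 and chr10:68956397-68956646 (DDX21, plus strand), chr2:112541786-112542035 and chr2:112542215-112542464 (POLR1B, plus strand) and chr2:202911674-202911923 (WDR12, minus strand).
DDX21 window 1: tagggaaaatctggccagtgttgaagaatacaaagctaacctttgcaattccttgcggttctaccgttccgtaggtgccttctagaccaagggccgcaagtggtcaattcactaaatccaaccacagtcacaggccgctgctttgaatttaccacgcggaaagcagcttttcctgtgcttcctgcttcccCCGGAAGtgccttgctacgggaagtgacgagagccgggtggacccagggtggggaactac
DDX21 window 2: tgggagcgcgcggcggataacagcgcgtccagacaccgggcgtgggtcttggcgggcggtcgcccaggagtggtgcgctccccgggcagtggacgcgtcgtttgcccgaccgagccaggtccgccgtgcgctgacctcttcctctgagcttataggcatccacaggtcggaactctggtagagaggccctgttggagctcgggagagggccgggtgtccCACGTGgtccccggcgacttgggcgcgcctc
POLR1B window 1: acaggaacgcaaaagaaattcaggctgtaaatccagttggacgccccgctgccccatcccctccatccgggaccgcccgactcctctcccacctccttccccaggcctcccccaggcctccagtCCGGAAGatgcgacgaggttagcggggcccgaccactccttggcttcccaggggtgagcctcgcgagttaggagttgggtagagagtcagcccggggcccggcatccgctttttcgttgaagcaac
POLR1B window 2: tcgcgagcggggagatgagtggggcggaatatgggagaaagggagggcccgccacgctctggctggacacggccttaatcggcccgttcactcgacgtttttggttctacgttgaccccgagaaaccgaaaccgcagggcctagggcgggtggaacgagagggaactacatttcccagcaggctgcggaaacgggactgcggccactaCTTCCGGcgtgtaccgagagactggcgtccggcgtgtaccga
WDR12 window: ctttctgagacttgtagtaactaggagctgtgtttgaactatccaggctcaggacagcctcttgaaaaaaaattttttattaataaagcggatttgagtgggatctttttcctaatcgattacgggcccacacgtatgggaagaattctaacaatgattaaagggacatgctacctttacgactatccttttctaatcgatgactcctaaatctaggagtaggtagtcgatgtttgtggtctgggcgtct
CACGTG stands in the second DDX21 window, with its first base 31 bases before the start. The first DDX21 window holds CCGGAAG, which begins 60 bases before the start. Each POLR1B window holds 1 match to the ETS motif, beginning 126 and 42 bases before its start, the second on the opposite strand, and the WDR12 window holds neither motif.

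Promoter windows were found for 50 of the 59 members, 60 windows in all. CACGTG was present in 16.7% of the members' windows, against 7.38% of 21490 windows of all measured genes and 8.08% of those of genes above the array median. The 10 members with it were DDX21, IMP4, NOL7, NOL8, NOP10, POLR1G, UTP4, UTP14A, UTP18 and UTP20. Of these 10 members 1, DDX21, was called lower, and 9 of the 40 without the motif, against 5.77% of all genes with it and 4.48% of all genes without it. Among genes above the array median 7.11% with CACGTG were called lower and 6.33% without it. The median difference was -0.21 in these 10 members and -0.20 in the 40 without it (log2). CCGGAAG in either orientation stood in 25% of the members' windows, against 10.8% of all windows and 13.3% of those of genes above the array median, and the median difference was -0.21 in the 14 members with it and -0.20 in the 36 without it. Of these 14 members 4 were called lower and of the 36 others 6, against 5.18% of all genes with the motif and 4.51% of all genes without it. Among genes above the array median the order was the reverse, with 5.83% called lower with the motif and 6.54% without it. A match is a description of letters in a window and says nothing of binding in these cells.

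Of the 8 RNA polymerase I subunits 4 were lower and 0 higher, while 6 and 1 had an unadjusted p below 0.05 in limma, with a median difference of -0.31 (log2). POLR1B encodes the subunit that forms the catalytic centre together with POLR1A. POLR1B read 7.00, 6.77 and 6.76 on the TGF-b1 arrays, against 7.65, 7.50 and 7.62 on the untreated arrays. The treated arrays lay below the untreated ones by much more than either group spread, with means of 6.84 ± 0.13 and 7.59 ± 0.08 (SD, n = 3 each). The difference of -0.75 ± 0.09 (log2, SE) was the lowest of all 59 members, a level 1.68-fold lower (limma adjusted p = 0.00214). It was also the only fall among members that passed a test against a fold of 1.2 (limma treat, adjusted p = 0.0239), and NOL4L the only rise (adjusted p = 0.00306), where 0.612% of all genes were lower and 1.04% higher. Its probe set carries a suffix that marks sequence shared between transcripts. With the mean of all POLR1B probe sets the difference was -0.37 (adjusted p = 0.0184), and without suffixed probe sets it was -0.27 and did not pass (adjusted p = 0.21).

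POLR1E encodes the PAF53 subunit, which pairs with POLR1G. POLR1E read 6.69, 6.88 and 6.91 in treated cells, against 7.17, 7.15 and 7.32 in untreated cells, and the groups did not overlap. It was 1.31-fold lower (difference -0.39 ± 0.09, log2, SE; limma adjusted p = 0.0363). Its partner POLR1G read 6.86, 7.03 and 7.10 in treated cells, against 6.73, 6.65 and 6.71 in untreated cells. For POLR1G every treated array lay above every untreated one, and the difference of 0.30 had a 95% interval from 0.11 to 0.49 but did not pass (limma adjusted p = 0.0638).

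POLR1C and POLR1D encode subunits that RNA polymerase I shares with RNA polymerase III. POLR1D read 8.62, 8.61 and 8.72 in treated cells, against 8.95, 8.93 and 9.08 in untreated cells, 1.27-fold lower (limma adjusted p = 0.0322). POLR1C was 1.26-fold lower (difference -0.33, limma adjusted p = 0.0495). The calls of POLR1C, POLR1D and POLR1E were lost in each of the 6 fits that left out an array (adjusted p up to 0.153, 0.114 and 0.126). The largest subunit POLR1A differed by -0.22, the stalk subunit POLR1F by -0.20 and the small subunit POLR1H by -0.28 (log2), and none of these 3 passed (limma adjusted p = 0.187, 0.169 and 0.271).

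**Figure D2:**
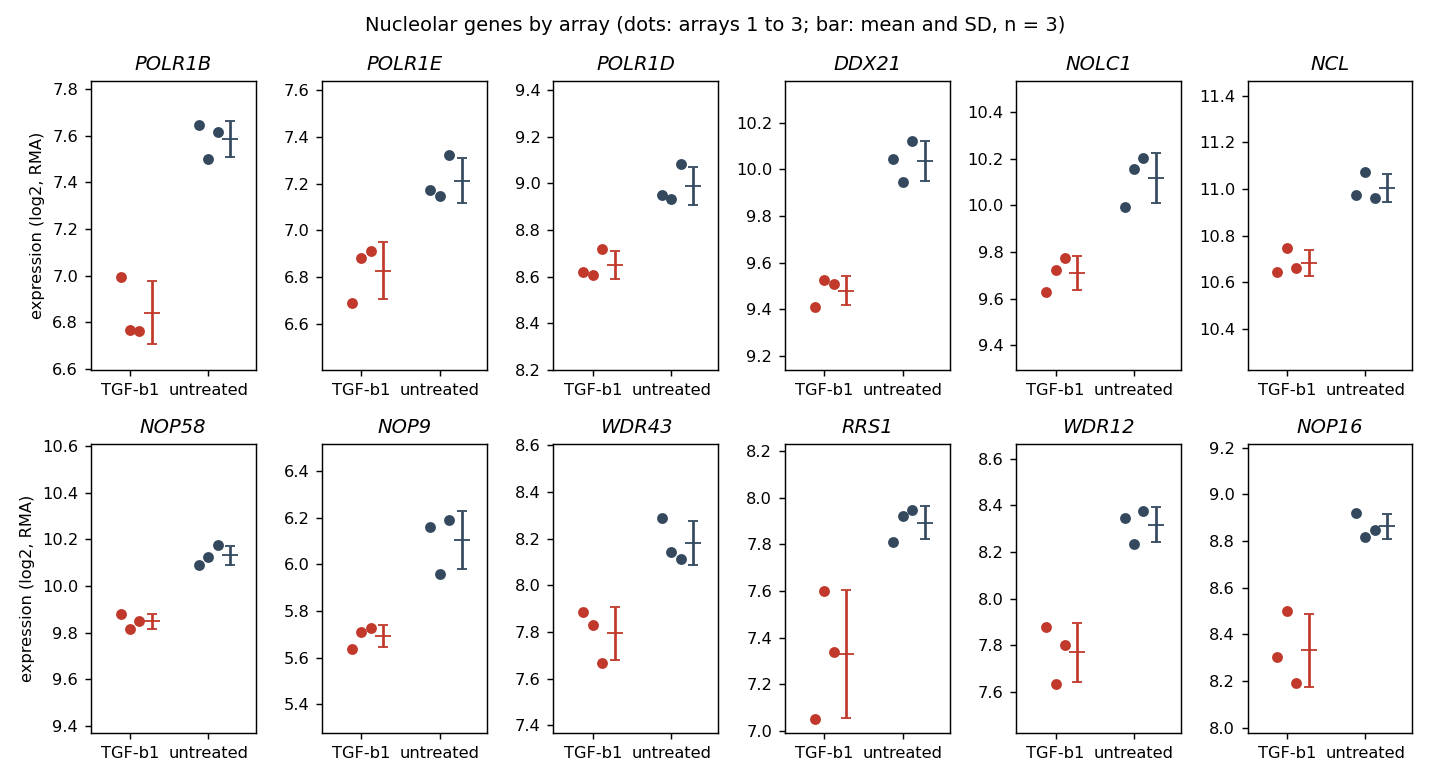
Expression (log2 RMA values, y axis) of 12 of the 14 members called lower, by group on the x axis, with each dot an array and bars giving the mean and SD (n = 3). Each panel spans the same range on the log2 scale around the gene's own mean and does not start at 0, and in all 12 panels the TGF-b1 arrays lie below the untreated arrays.

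Of 5 proteins that organise the nucleolus or act on Pol I transcription and pre-ribosomal RNA, 3 were lower and 0 higher, with 5 and 0 at an unadjusted p below 0.05 (limma). DDX21 encodes a nucleolar DEAD-box RNA helicase. DDX21 read 9.41, 9.53 and 9.51 on the TGF-b1 arrays, against 10.04, 9.95 and 10.12 on the untreated arrays. The lowest untreated array stood well above the highest treated one, and DDX21 was 1.47-fold lower (-0.56 ± 0.08, log2, SE; limma adjusted p = 0.00427). Its second probe set was lower as well, by -0.46 (limma over all probe sets, adjusted p = 0.0127).

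NOLC1 encodes Nopp140, a chaperone of small nucleolar ribonucleoproteins. NOLC1 read 9.63, 9.72 and 9.78 in treated cells, against 10.00, 10.16 and 10.20 in untreated cells. It was 1.33-fold lower (limma adjusted p = 0.0227), and its other probe sets differed by -0.50 and -0.39 (log2), both called. NCL, which encodes nucleolin, an abundant RNA-binding protein of the nucleolus, read 10.64, 10.75 and 10.66 in treated cells, against 10.97, 11.07 and 10.96 in untreated cells. NCL was 1.25-fold lower (limma adjusted p = 0.0335), a call lost in each of the 6 fits that left out an array (adjusted p up to 0.123). The NOLC1 call was kept in 2 of the 6 fits that left out an array (adjusted p up to 0.0896).

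NPM1 encodes nucleophosmin, the main protein of the outer, granular part of the nucleolus. NPM1 read 12.60, 12.55 and 12.56 in treated cells, against 12.82, 12.80 and 12.83 in untreated cells. The groups were tight and did not overlap, but the difference of -0.25 did not pass (limma adjusted p = 0.0532). One of its other probe sets was called, at -0.42 (limma over all probe sets, adjusted p = 0.0209). TCOF1, which encodes treacle, a scaffold for Pol I at ribosomal DNA, differed by -0.29 (adjusted p = 0.0682) with no overlap between groups. Its other probe sets differed by -0.13 and -0.10 with overlapping groups, and did not pass (limma over all probe sets, adjusted p = 0.558 and 0.704).

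Small nucleolar ribonucleoproteins were represented by 3 genes, of which 1 was lower and 0 higher, with 2 and 0 at an unadjusted p below 0.05 (limma). NOP58, a core protein of box C/D particles, read 9.88, 9.82 and 9.85 in treated cells, against 10.09, 10.13 and 10.18 in untreated cells. NOP58 was 1.22-fold lower (limma adjusted p = 0.0403), and the call was lost in each of the 6 fits that left out an array (adjusted p up to 0.136). FBL, which encodes fibrillarin, the ribose methyltransferase of the same particles, read 10.31, 10.55 and 10.58 in treated cells, against 10.73, 10.75 and 10.81 in untreated cells. FBL differed by -0.28 (adjusted p = 0.0962), and NOP10 of the pseudouridylation particles by -0.14 with an interval from -0.30 to 0.01.

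The small-subunit processome, which matures the small-subunit RNA, was the role with the most members. Of 25 measured genes 3 were lower, 0 higher and 22 did not pass, with 10 and 0 at an unadjusted p below 0.05 (limma) and a median of -0.18 (log2). NOP9, whose yeast counterpart is an RNA-binding protein of the small-subunit precursor, read 5.64, 5.71 and 5.73 in treated cells, against 6.16, 5.96 and 6.19 in untreated cells. NOP9 was 1.33-fold lower (limma adjusted p = 0.0226). WDR43 and WDR75 are human processome proteins that also act in Pol I transcription. WDR43 read 7.89, 7.83 and 7.67 in treated cells, against 8.29, 8.14 and 8.11 in untreated cells, 1.31-fold lower (adjusted p = 0.0342). WDR75 was 1.27-fold lower (adjusted p = 0.0383). The calls of NOP9, WDR43 and WDR75 were each kept in 1 of the 6 fits that left out an array (adjusted p up to 0.0894, 0.108 and 0.122).

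Several other processome genes missed the threshold although their groups did not overlap. IMP3, a protein of the U3 particle, differed by -0.31 (limma adjusted p = 0.0529), NOL11 by -0.28 (adjusted p = 0.0585) and UTP20 by -0.22 (adjusted p = 0.105). NOP14 differed by -0.28, NOL10 and NOL7 by -0.18 each, and UTP14A by -0.22, without passing. UTP18 differed by -0.33 with overlapping groups (adjusted p = 0.149). RRP36 stood at 8.70 ± 0.10 in treated and 8.53 ± 0.15 in untreated cells (SD, n = 3 each), a difference of 0.18 with an interval from -0.05 to 0.40.

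Of 13 measured genes of large-subunit assembly 3 were lower and 0 higher, with 5 and 0 at an unadjusted p below 0.05 (limma), and the median was -0.14 (log2). These 3, RRS1, WDR12 and NOP16, differed by more than 0.5, as did only POLR1B and DDX21 among the other members called lower. WDR12 forms the PeBoW complex with PES1 and BOP1. WDR12 read 7.88, 7.63 and 7.80 on the TGF-b1 arrays, against 8.34, 8.23 and 8.37 on the untreated arrays. The groups were clearly apart, and WDR12 was 1.46-fold lower (-0.55 ± 0.09, log2, SE; limma adjusted p = 0.00846). Its complex partner PES1 stood at 6.94 ± 0.13 in treated and 6.96 ± 0.03 in untreated cells (SD, n = 3 each), a difference of -0.03 with an interval from -0.22 to 0.17. Whether the differences of WDR12 and PES1 differ from each other was not tested.

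NOP16 encodes a nucleolar protein needed for the large subunit in yeast. NOP16 read 8.30, 8.50 and 8.19 in treated cells, against 8.92, 8.82 and 8.85 in untreated cells, 1.44-fold lower (limma adjusted p = 0.0125, and 0.0512 without untreated array 1). RRS1 helps to place the particle that carries the smallest ribosomal RNA. RRS1 read 7.05, 7.60 and 7.34 in treated cells, against 7.81, 7.92 and 7.95 in untreated cells. The treated arrays were widely spread, with an SD of 0.27 against 0.07 in untreated cells, and RRS1 was 1.48-fold lower (adjusted p = 0.0368). The RRS1 call was kept in 1 of the 6 fits that left out an array (adjusted p up to 0.123).

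RRP15, also a large-subunit factor in yeast, read 6.87, 7.17 and 7.13 in treated cells, against 7.39, 7.39 and 7.67 in untreated cells. Its difference of -0.43 did not pass (limma adjusted p = 0.0576). NIP7 read 8.37, 8.29 and 8.24 in treated cells, against 8.38, 8.65 and 8.55 in untreated cells, and the groups were separated by a narrow margin. NIP7 differed by -0.23 (adjusted p = 0.17), the RNA methyltransferase gene NOP2 by -0.24 with overlapping groups, and RRP1B by 0.14 with an interval from -0.05 to 0.32.

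Symbols of these families that belong to none of the above roles gave the 1 rise. NOL4L read 6.39, 6.28 and 6.41 on the TGF-b1 arrays, against 5.53, 5.43 and 5.54 on the untreated arrays. It was 1.82-fold higher (0.86 ± 0.07, log2, SE; limma adjusted p = 4.25e-04), and the call was kept in each of the 6 fits that left out an array. With the mean of all NOL4L probe sets the difference was 0.15 and did not pass (adjusted p = 0.175). A second NOL4L probe set was higher by 0.38 (limma over all probe sets, adjusted p = 0.0432), while its 4 dimmer probe sets differed by -0.18 to 0.04. NOL3, named for the nucleolus but known as a repressor of apoptosis, read 7.74, 7.86 and 8.09 in treated cells, against 7.68, 7.75 and 7.73 in untreated cells, a difference of 0.18 that did not pass. NOL8 read 8.35, 8.12 and 8.12 in treated cells, against 8.47, 8.48 and 8.45 in untreated cells, a difference of -0.27 (adjusted p = 0.0962).

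In 28 of the 59 members the 95% interval of the difference included 0. Of these 28, 19 had negative and 9 positive differences, from -0.28 to 0.18 (log2). Their intervals reached from -0.60 to 0.44.

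**Figure D3:**
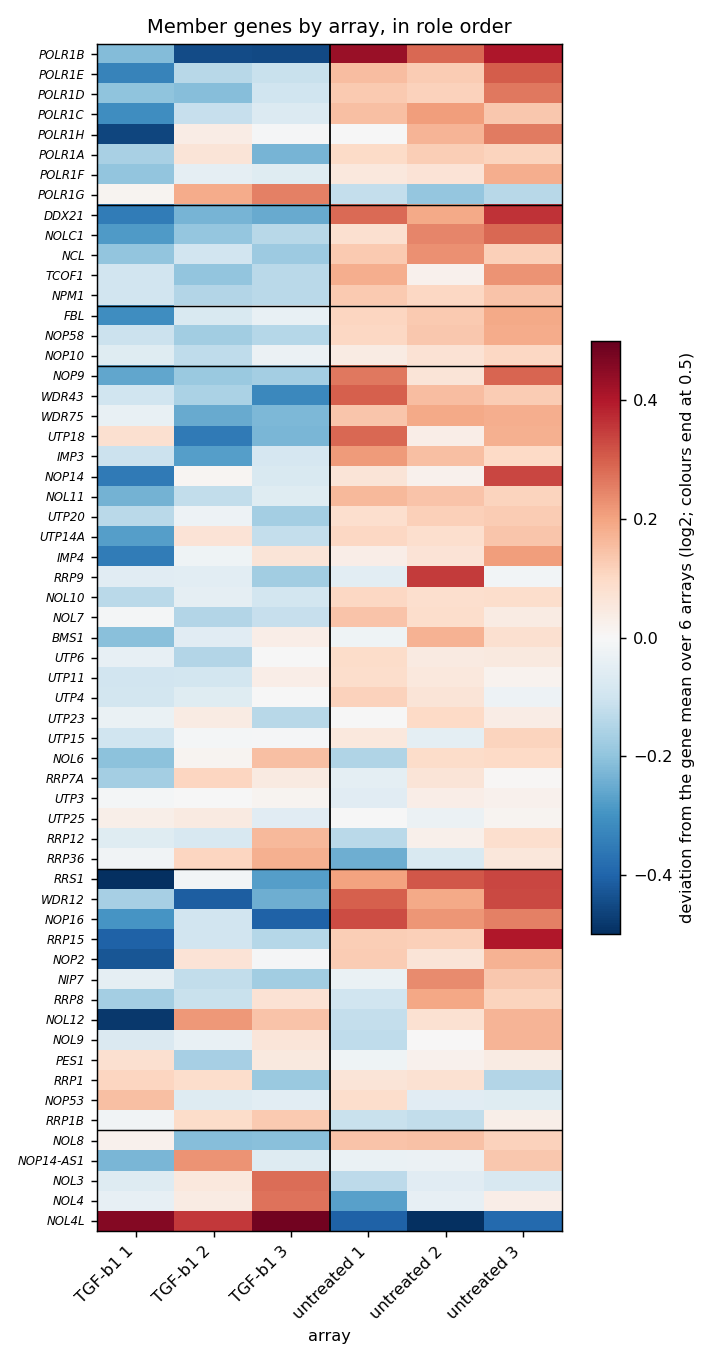
Deviation of each member from its mean over the 6 arrays (log2, colour, with the scale ending at 0.5 in either direction), with TGF-b1 arrays left of the line and untreated arrays right of it, and genes in order of role. Most rows are blue on the left and red on the right. Of the 59 differences 11 are above 0, and in POLR1G and NOL4L every TGF-b1 array lies above every untreated array.

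The shift was seen on each array. The median deviation of the 59 members from their gene means was -0.11, -0.06 and -0.07 on TGF-b1 arrays 1 to 3, against 0.09, 0.09 and 0.12 on untreated arrays 1 to 3 (log2). The same median over all genes stayed between -0.01 and 0.01 on each of the 6 arrays. TGF-b1 array 1 held the lowest value of 26 of the 59 members, and untreated array 3 the highest value of 22.

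Of the 59 members 41 had more than 1 probe set. There were 42 further probe sets above the array median, of 24 genes, of which 31 had the sign of the gene's brightest probe set and 11 the opposite sign. Among these 42, 6 were called lower and 1 higher in a limma fit over all probe sets, which called 3.8% lower and 3.84% higher of those above the array median. In that fit 6 of the 14 members called lower kept the call in their brightest probe set: POLR1B, DDX21, WDR12, NOP16, NOP9 and NOLC1. The other 8 (POLR1C, POLR1D, POLR1E, NCL, NOP58, RRS1, WDR43 and WDR75) did not pass there. With the mean of all probe sets of a gene POLR1C was -0.24, POLR1D -0.19, POLR1E -0.18, NCL -0.15 and NOP9 -0.20, none of which passed. With the same mean NOP16 was -0.32 and passed (adjusted p = 0.0184). The other POLR1C probe set, also above the array median, differed by -0.16 with overlapping groups and did not pass. The POLR1B probe sets disagreed in size: the brightest differed by -0.75, the others by 0.03, -0.27 and -0.52 (log2), and only the brightest and the last passed. Of the NOP16 probe sets the 2 brightest were lower, by -0.53 and -0.69, and the other 2 differed by 0.07 and -0.13. For NCL the only other probe set lay below the array median and differed by 0.03.

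**Figure D4:**
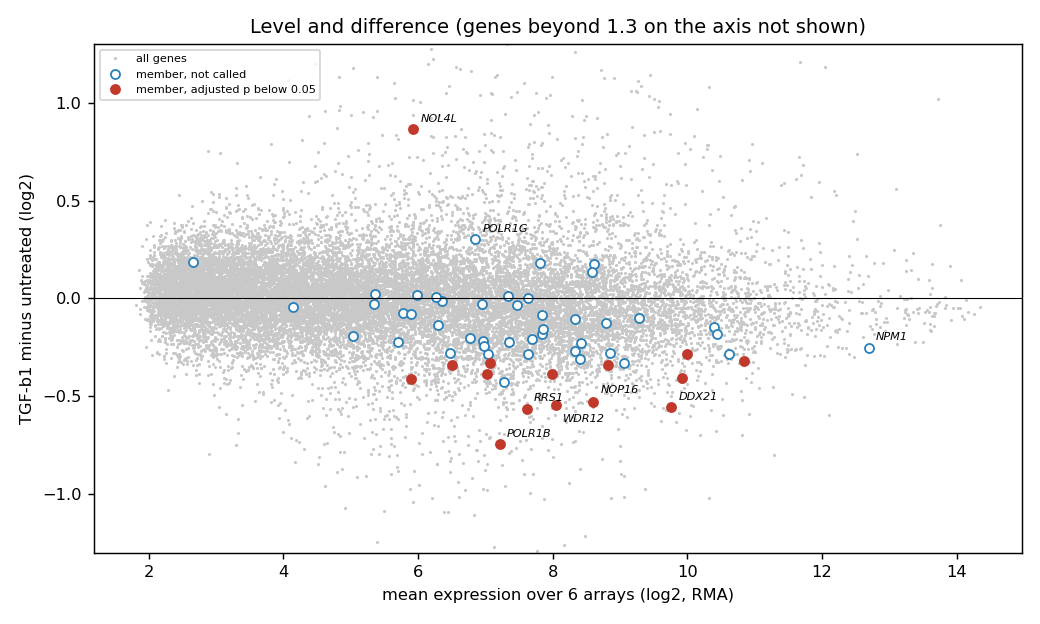
Mean expression over 6 arrays (log2 RMA values, x axis) against the TGF-b1 minus untreated difference (log2, y axis) for all genes (grey) and members (circles, filled where the adjusted p was below 0.05). Members called lower lie between -0.75 and -0.28, and genes beyond 1.3 in either direction are not drawn.

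Other genes of the same pathway had differences of like size. Of 100 further measured ribosome assembly factors outside the rule, 15 were lower and 0 higher, with 39 and 1 at an unadjusted p below 0.05 (limma), and 90 of 100 differences were negative, with a median of -0.17 (log2). The assembly factor RSL1D1 differed by -0.42 (limma adjusted p = 0.00869), the nucleolar zinc finger gene LYAR by -0.49 (adjusted p = 0.0104), the kinase gene RIOK1 by -0.39 (adjusted p = 0.0119) and the processome gene WDR3 by -0.42 (adjusted p = 0.0135). RSL1D1 and LYAR kept their calls in all 6 fits that left out an array, and RIOK1 and WDR3 in 5. Without suffixed probe sets RSL1D1 was -0.11 and WDR3 0.12, and neither passed. Of 13 factors of Pol I transcription, 3 were lower and 0 higher, with 5 and 0 at an unadjusted p below 0.05. They were TAF1A of the promoter selectivity factor, at -0.42, and the topoisomerase genes TOP1 and TOP2A, at -0.34 and -0.29. Their calls were kept in 1, 1 and 0 of the 6 fits that left out an array (adjusted p up to 0.127, 0.137 and 0.161), and TOP2A was -0.15 with the mean of all probe sets. TBP differed by -0.33 without passing (adjusted p = 0.0669). UBTF, the activator that binds ribosomal DNA, differed by -0.03 with an interval up to 0.15, and RRN3, the initiation factor of Pol I, by -0.16 (adjusted p = 0.255).

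The median difference was -0.06 (log2) for both the 10 measured Pol III subunits and the 12 Pol II subunits, and whether it differs from that of Pol I was not tested. POLR3K and POLR3G were lower, by -0.57 and -0.51 (limma adjusted p = 0.0227 and 0.0478), but the calls were kept in 3 and 2 of the 6 fits that left out an array (adjusted p up to 0.0892 and 0.153). With the mean of all probe sets they were -0.29 and -0.24, and without suffixed probe sets POLR3K was -0.01, and none of these passed. POLR3E and POLR3D differed by -0.20 and 0.24 without passing. Of the Pol II subunits 0 passed in limma, with 3 of 12 lower and 0 higher at an unadjusted p below 0.05, where 12.6% and 10.6% of all genes were. Negative differences were found in 10 of the 12 Pol II and 7 of the 10 Pol III subunits. POLR2H, POLR2D, POLR2B and POLR2F differed by -0.20, -0.26, -0.17 and -0.16.

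Of 62 cytosolic ribosomal protein genes 0 were lower and 1 was higher in limma, with 7 and 1 at an unadjusted p below 0.05, which is no larger a share than the 12.6% and 10.6% of all genes, although 54 differences were negative. Their median was -0.08 (log2), and the 1 rise was RPS27L, a paralogue of a small-subunit protein known as a p53 target, at 0.59 (adjusted p = 0.00682; 0.33 without suffixed probe sets, which did not pass). RPS6, RPL39L and RPS14 differed by -0.22, -0.23 and -0.23 without passing. In 24 of the 62 cytosolic genes every treated array lay below every untreated array, and in 2 above, against 16.3% and 12.9% of all genes. Among genes above the array median 22% had every treated array below. Of 77 mitochondrial ribosomal protein genes, whose products build a separate ribosome outside the nucleolus, 6 were lower and 0 higher, with 29 and 1 at an unadjusted p below 0.05 and a median of -0.13. Their differences were negative in 67 of 77. In 42 of these genes every treated array lay below every untreated array, and in 4 above, so the lean downward was not particular to the members. MRPL46, MRPS6, MRPL19 and MRPS30 were lower, by -0.40, -0.38, -0.36 and -0.26, with calls kept in 6, 3, 2 and 0 of the 6 fits that left out an array. With the mean of all probe sets MRPL19 was -0.21 and MRPS30 -0.14, and neither passed.

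**Figure D5:**
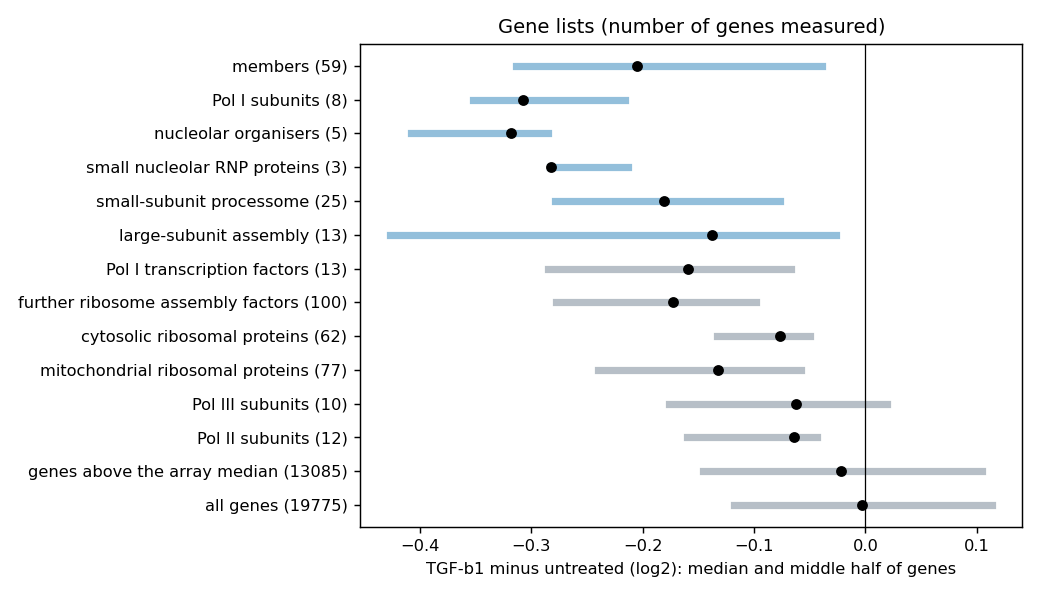
Median TGF-b1 minus untreated difference (log2, x axis; dots) and the span from lower to upper quartile (bars) for the members, their roles, other gene lists and all genes, with the number of genes measured in brackets. The members' median is -0.21, that of further assembly factors -0.17 and that of all genes -0.003.

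MYC itself was lower. MYC read 8.95, 8.84 and 8.86 on the TGF-b1 arrays, against 9.94, 9.83 and 9.81 on the untreated arrays, a difference of -0.97 ± 0.07 (log2, SE; limma adjusted p = 2.21e-04). Of 11 measured genes of the MYC network 2 were lower and 1 higher. The other fall was MXI1, which encodes a MAX-binding antagonist of MYC, at -0.56 (adjusted p = 0.00896), and the rise was MLXIP, which encodes a glucose-responsive relative, at 0.73 (adjusted p = 5.45e-04). MAX, the partner of MYC, differed by 0.02 and MYCN by -0.31 without passing. The part of MYC in the lower levels of the members was not tested.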

How the data were processed

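The deposited values are log2 expression estimates of 54675 probe sets on 6 arrays, made by the authors with Affymetrix Expression Console and RMA, per the submitters' processing notes, which name no version or option. RMA subtracts background and equalises distributions between arrays. Of the probe sets 41091 had 1 symbol in the platform annotation, 1801 several and 11721 none, and 62 controls were left out. Each gene took its probe set of highest mean.

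Treated minus untreated was fitted in R 4.3.3 with limma 3.58.1 (lmFit and eBayes, no filter or covariate), with Benjamini-Hochberg adjustment over 19775 genes. Members, lists and tests were chosen with earlier results of these data known, so the members' counts are a description and not an unselected comparison. Array values are given for POLR1B, DDX21, WDR12, called members beyond 0.5 (log2) and up to 2 further members of each role, those of smallest p. Outside this rule they are given for POLR1G, NPM1, SMAD7 and MYC. Of other lists the 4 genes of smallest p are named, with MYC, MAX, UBTF, RRN3, SMAD7 and PMEPA1. Single cell type markers were named after their values were seen.

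On simulated data with 200 changed genes, 0% were recovered at a fold of 1.3, 48.5% at 1.5 and 89.5% at 2. The data had 1680 called genes, and recovery at an adjusted p depends on how many genes change. These simulated shares therefore do not give the recovery in the data. Alternatives were other normalizations, filters, probe set choices, variance and weight settings, a replicate block, treat and left-out arrays. The 3' over 5' covariate was chosen after seeing the data.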

Additional observations from a re-analysis of the deposited data

How the results depend on the processing

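Over 18 alternative settings, 39 of the 59 members stayed below 0 in all, and 14 changed sign in at least 1, of which 1, NCL, was called lower. Members called lower numbered 23 with a trended robust variance, 9 of the 50 members left without suffixed probe sets (whose sequence can be shared between transcripts), and 1 with treat against a fold of 1.2. They numbered 4 to 8 without single arrays and 1 without both arrays numbered 1, where fewer samples enter the fit. With the replicate block there were 11, and the settings with 13 to 19 were the remaining ones. Changed genes over the whole table numbered 1680, and 2629, 1004, 327, 766 to 1319 and 628 under the same 5 settings, and 1280 with the replicate block. The share of fitted genes called lower was 7.72%, 3.11%, 0.612%, 1.6% to 3.19% and 1.37% under those 5 settings. It was 3.31% with the replicate block and 3.76% to 9.95% in the remaining settings, highest with the filters. Members called higher were 1, but 2 (NOL4L and POLR1G) after repeated quantile normalization, with either filter, a trended robust variance or array weights, 1 to 2 without single arrays, and 0 with the mean of all probe sets. The members' median of -0.21 was -0.15 with the mean of all probe sets, -0.13 without suffixed probe sets, -0.18 with array weights, -0.18 without both arrays numbered 1 and -0.23 to -0.15 without single arrays. Repeated quantile normalization lost WDR43 and WDR75 among members called lower and gained NPM1 and RRP15.

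Some differences turned sign. Of the genes concerned, NCL and WDR3 were called lower as reported and the others were not called. With the mean of all probe sets POLR1H was 0.011, MAX -0.10, MYCN 0.0019 and POLR3E 0.033. Without suffixed probe sets NCL was 0.026, where the dim probe set stands in, and MAX was -0.30, POLR3E 0.23, RPS14 0.15, RPS6 0.11 and WDR3 0.12. Without single arrays PES1 ran from -0.073 to 0.050, MAX from -0.018 to 0.048 and UBTF from -0.085 to 0.014, and without both arrays numbered 1 UBTF was 0.017. In the 2 settings on probe sets, other probe sets of the same gene replace the brightest one or are averaged with it. Why these disagree was not tested, nor was the cause of the sign changes without arrays. With the replicate block 11 members were called lower, all among the 14, and POLR1C, NOP58 and WDR75 were not called (adjusted p = 0.0711, 0.0728 and 0.0724). Once group means were subtracted, arrays sharing a number correlated over all genes at 0.20, 0.056 and 0.091 for numbers 1 to 3, and over the members at 0.549, 0.0761 and 0.53. Number 2 stayed under 0.1 in both, while numbers 1 and 3 reached 0.549 and 0.53 over the members. The labels do not say what a shared number marks, and the main fit did not treat the numbers as pairs. Whether a shared number marks a shared batch was not tested. Scanner signals were not used here, and whether dim probe sets stood above background was not tested.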
